A study of Mus musculus with 18 samples.

Results

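Btg4, Pabpn1l, Zfp36l2, Tut4, Tut7 and Dis3l2 are the 6 genes described here, out of 27874 in the expression table. They were chosen by name as adaptors of maternal mRNA decay and as genes of RNA uridylation, and the rule itself uses no measured value. The choice was made with earlier results of these data known, so the counts of members below are not those of a set picked blind. The libraries came from mouse oocytes that lacked Lsm14b (labelled Lsm14b-/-, here KO) and from wild-type (WT) oocytes. LSM14B binds RNA in the ribonucleoprotein particles of the cytoplasm, and the series compares transcripts with and without it during meiosis. The 6 groups were KO and WT oocytes at the germinal vesicle stage (GV), KO and WT oocytes at metaphase I (MI), and KO and WT oocytes collected 14 h after hCG, the gonadotropin that triggers meiotic maturation. This time is written MII here, as in the labels, and the stage that single KO oocytes had reached is not stated. Each group had 3 libraries, and each library held 15 pooled oocytes. The labels used here give no strain, age or kind of Lsm14b allele, and they do not say whether the 3 libraries of a group came from separate mice. The p-values below therefore measure the spread between these libraries, which may be partly technical.

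A growing oocyte stores mRNA with short poly(A) tails in a silent form, and during meiotic maturation part of this store is translated and another part is removed. Removal starts with the shortening of the poly(A) tail by the CCR4-NOT deadenylase, which is brought to its targets by adaptors. BTG4, which is made in the maturing oocyte from stored mRNA, joins CCR4-NOT to mRNA. PABPN1L is a poly(A)-binding protein of oocytes and early embryos that acts in maternal mRNA decay with BTG4. ZFP36L2 is a CCCH zinc finger protein that binds AU-rich elements and also recruits CCR4-NOT. TUT4 and TUT7 are terminal uridylyltransferases, which add uridines to mRNA whose tail has become short, and DIS3L2 is an exonuclease that degrades uridylated RNA from the 3′ end.

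Stretches near the 3′ ends of Btg4, Pabpn1l and Tut7 are shown because the differences between genotypes reported below lie in these 3 mRNAs. Tail length and translation of stored mRNA also depend on elements close to the 3′ end. Each stretch was placed around its marked motif. It stops 49 bases before the annotated end in Btg4, 2 in Pabpn1l and 8 in Tut7. In each line 30 bases of the annotated mRNA strand are given 5′ to 3′ as DNA, from GENCODE vM21 transcripts on mm10 coordinates. Capitals mark a cytoplasmic polyadenylation element (CPE, TTTTAT) in Btg4 and a polyadenylation signal (ATTAAA or AATAAA) in Pabpn1l and Tut7.
Btg4, chr9:51119797-51119826, plus strand: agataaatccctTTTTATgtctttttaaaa
Pabpn1l, chr8:122619473-122619502, minus strand: agaatgtaaattATTAAActtgaatatatt
Tut7, chr13:59771569-59771598, minus strand: tcatggtaaaaaAATAAAaatggtgaccat

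The last 100 bases of the 3′ UTR were searched on the mRNA strand, with overlapping matches counted. The polyadenylation signals were AATAAA and its variant form ATTAAA, and the CPE was searched in a shorter form, TTTTAT, and a longer form, TTTTAAT. The AU-rich element was TATTTAT, and the Pumilio element searched for was TGTANATA, with N for any base. Btg4 was the only member with a CPE in this window. Its TTTTAT begins 67 bases before the annotated end, and neither polyadenylation signal was found in the window. The other 5 members held a polyadenylation signal, which begins 20 bases before the end in Pabpn1l and Tut4, 26 in Tut7, 18 in Dis3l2 and 15 in Zfp36l2, and none of the 5 held a CPE. The AU-rich element and the Pumilio element were not found in the window of any of the 6. Among 8095 tested genes with a 3′ UTR that fills the window, 20.8% held a CPE of either form, of which the shorter form was found in 16.0% and the longer form in 6.2%. A polyadenylation signal of either form was found in 82.4%, as AATAAA in 67.3% and in its variant form in 22.2%. The AU-rich element was found in 4.5% and the Pumilio element in 5.5%. A match describes these letters only, and the annotated ends were not checked against reads.

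The genes lie on 6 chromosomes and all are annotated as protein coding. Btg4 (ENSMUSG00000032056) spans chr9:51060901-51119875 on the plus strand and Pabpn1l (ENSMUSG00000069867) chr8:122619471-122622739 on the minus strand. Zfp36l2 (ENSMUSG00000045817) spans chr17:84183931-84187947 on the minus strand. Tut4 (ENSMUSG00000034610, also named Zcchc11) spans chr4:108459426-108559421 on the plus strand and Tut7 (ENSMUSG00000035248, also named Zcchc6) chr13:59771561-59823147 on the minus strand. Dis3l2 (ENSMUSG00000053333) spans chr1:86703808-87050095 on the plus strand. Other genes share 10.4% of the exon length of Tut7 (Etohd2 on the opposite strand and Gm49354 on the same strand) and 2.97% of that of Zfp36l2 (AC132455.1 on the opposite strand). Reads from a stretch shared with the opposite strand cannot be assigned to either gene where strand was not used in counting. The use of strand is not given in the sources used here. Strand cannot assign the reads from the stretch shared by Tut7 and Gm49354.

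Expression was measured by Smart-seq2 with an oligo(dT) primer and deposited as fragments per kilobase of exon, scaled to the library total (FPKM). Values of low genes were whole multiples of a step in each library, from which whole reads were recovered, and the totals used for scaling came to between 14227763 and 17183681 reads. Lsm14b stood at 0 to 0.234 FPKM (0 to 10 reads) in the 9 KO libraries and at 2.04 to 11.2 FPKM (84 to 548 reads) in the 9 WT libraries. The 12 oocyte markers summed to between 10060 and 26710 FPKM in every library, and none was at 0 throughout a group. Of these 12, 2 were higher and 3 lower in KO at GV, 1 higher and 2 lower at MI, and 6 higher and 2 lower at MII, where their median change was 1.11. The 12 markers of cumulus and granulosa cells summed to 7.64 to 9.42 FPKM in KO and 4.57 to 7.41 FPKM in WT at GV, to 5.57 to 6.07 in KO and 4.77 to 8.55 in WT at MI, and to 3.57 to 5.93 in KO and 5.68 to 7.51 in WT at MII. Of the 4 cumulus and granulosa markers tested, 2 were higher in KO at GV and 1 was lower at MII. The 4 blood markers found summed to 0.754 to 1.65 FPKM in KO and 0.507 to 0.628 in WT at GV, to 1.40 to 1.99 in KO and 0.613 to 2.22 in WT at MI, and to 1.23 to 2.72 in KO and 0.538 to 1.08 in WT at MII, where the 1 tested was higher in KO. Hba-a1 and Hbb-bs were at 0 in all groups but WT MII. Ptx3 and Tnfaip6 were at 0 in all GV libraries, and Amh, Amhr2 and Foxl2 in all MI libraries. The part of such RNA in the results was not tested. Replicates 2 and 3 of the KO GV group stood apart from the rest, with SDs of their deviations from the group mean of 0.640 and 0.583 on the log2 scale, against 0.227 to 0.400 in the other 16 libraries.

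The 6 genes covered a wide range of levels. Over the 18 libraries, Btg4 had a median of 2252 FPKM, Pabpn1l 32.6, Tut7 1.54, Dis3l2 0.435, Zfp36l2 0.323 and Tut4 0.0898 FPKM. In reads, Btg4 had 28736 to 231752 per library and Pabpn1l 57 to 2555. Tut7 had 148 to 1114, Dis3l2 27 to 125, Zfp36l2 3 to 113 and Tut4 3 to 34 reads per library. Btg4 was among the most abundant mRNAs of the oocyte, at ranks 62 to 77 by FPKM in KO and 12 to 30 in WT at GV, 31 to 36 in KO and 12 to 16 in WT at MI, and 27 to 34 in KO and 6 to 10 in WT at MII. Its reads came to 0.195% to 0.581% of the total used for scaling in KO libraries and to 0.550% to 1.41% in WT libraries. Genotypes were compared on log2(FPKM + 1) among 10320 genes that reached 1 FPKM in at least 3 libraries, with limma and Benjamini-Hochberg adjustment over these genes, and a gene was called at an adjusted p under 0.05. Btg4, Pabpn1l, Tut7 and Zfp36l2 passed the filter, whereas Tut4 and Dis3l2 reached 1 FPKM in 0 libraries. FPKM values are relative to the library, so a lower value cannot separate less of an mRNA per oocyte from more of other RNA, and in these pools fewer oocytes with an mRNA and less of it per oocyte cannot be told apart. RNA was copied with an oligo(dT) primer through its poly(A) tail. Tail length was not measured, and its part in these values and their changes was not tested.

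**Figure D1:**
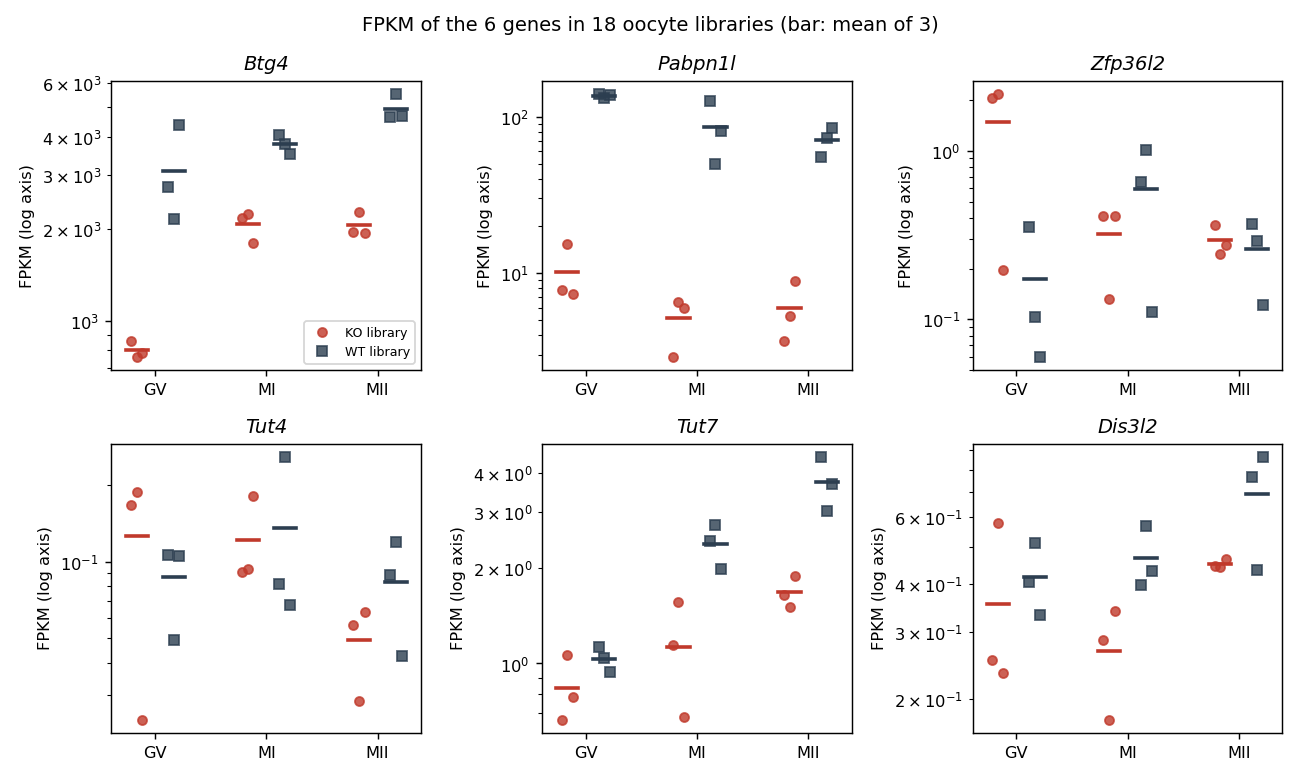
FPKM (log axis) of Btg4, Pabpn1l, Zfp36l2, Tut4, Tut7 and Dis3l2 in the 18 libraries by stage, with KO libraries as circles, WT libraries as squares and a bar at the mean of 3. Btg4 and Pabpn1l show KO below WT at every stage, with Pabpn1l at 2.90 to 15.3 FPKM in KO and 49.995 to 139 FPKM in WT, and the genotypes of Tut7 separate at MI and MII.

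Loss of Lsm14b went with lower Btg4 and Pabpn1l mRNA at all 3 stages and with lower Tut7 mRNA at MI and MII. Of the 4 members tested, 2 were lower and 1 higher in KO than in WT at GV, 3 were lower at MI and 3 were lower at MII. The 1 higher at GV was Zfp36l2, which passed the filter through KO GV replicates 1 and 2 and WT MI replicate 2 alone. Its call therefore supports nothing further. Among all genes tested, 20.8% were called at GV (13.3% higher and 7.49% lower), 17.3% at MI (3.63% higher and 13.7% lower) and 28.6% at MII (14.9% higher and 13.8% lower). The share at GV was unstable. Its 2146 called genes became 302 (92 higher and 210 lower) when only the 2 groups compared were fitted. Leaving out 1 library at a time gave 900 to 4130. Btg4 and Pabpn1l were among the 3.39% of genes that were lower in KO at all 3 stages, while 1.71% were higher at all 3. The libraries of both genes did not overlap at any stage, with KO below WT, as in 13.3% of all genes at GV, 24.5% at MI and 24.8% at MII. Without replicate 2 of the KO GV group the count at GV was 2 members, both lower, and without replicate 3 it was 3.

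Btg4, the CCR4-NOT adaptor, had 856, 761 and 787 FPKM in KO at GV, against 2743, 2150 and 4379 FPKM in WT. At MI it had 2177, 2231 and 1801 FPKM in KO and 4044, 3797 and 3524 FPKM in WT. At MII it had 1948, 2274 and 1936 FPKM in KO and 4638, 5512 and 4687 FPKM in WT. Every KO library stood below every WT library of its stage, and the 3 KO GV libraries were the lowest of all 18. The means were 801.4 ± 49.3 in KO and 3091 ± 1154 in WT at GV, 2069 ± 234 in KO and 3788 ± 260 in WT at MI, and 2053 ± 192 in KO and 4945 ± 491 FPKM in WT at MII (SD, n = 3 each). KO thus had 0.259 of the WT mean at GV, 0.546 at MI and 0.415 at MII. The log2 change of KO against WT was -1.88 (SE 0.233) at GV, with an adjusted p of 4.46e-05 in limma. It was -0.88 (adjusted p = 0.0141, limma) at MI and -1.27 (adjusted p = 0.000483, limma) at MII, with the same SE. Without replicates 2 or 3 of the KO GV group the change at GV was -1.85 or -1.87. The call at MI ended without KO MI replicate 3 (-0.78, adjusted p = 0.0591) and under median-of-ratios scaling (-0.68, adjusted p = 0.174, limma).

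In order of mean level, Btg4 was highest in WT MII, then in WT MI, WT GV, KO MI, KO MII and KO GV. WT MII did not overlap WT MI, and KO MII did not overlap KO GV. WT MI and WT GV overlapped, as did WT GV and KO MI, and KO MI and KO MII differed by less than the spread of either.

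Pabpn1l, the oocyte poly(A)-binding protein gene, showed the widest gap of the 6. It had 7.81, 15.3 and 7.32 FPKM in KO at GV, against 139, 131 and 137 FPKM in WT. At MI it had 2.90, 6.54 and 5.99 FPKM in KO and 126, 49.995 and 80.3 FPKM in WT. At MII it had 3.69, 5.29 and 8.87 FPKM in KO and 55.4, 73.0 and 85.1 FPKM in WT. The highest of the 9 KO libraries, GV replicate 2 with 269 reads, stood well below the lowest WT library, MI replicate 2 with 905 reads. The means were 10.1 ± 4.45 in KO and 135.7 ± 4.49 in WT at GV, 5.14 ± 1.96 in KO and 85.3 ± 38.01 in WT at MI, and 5.95 ± 2.65 in KO and 71.2 ± 14.9 FPKM in WT at MII (SD, n = 3 each). The WT mean was 13.4 times the KO mean at GV, 16.6 times at MI and 11.96 times at MII. The log2 changes were -3.69, -3.77 and -3.42 (SE 0.355), with adjusted p of 2.85e-06, 1.25e-06 and 1.67e-06 in limma. Counted from the largest decrease, Pabpn1l was at position 3 of the 10320 genes tested at GV, 7 at MI and 5 at MII. No alternative ended these calls, and the change at GV was -4.00 or -3.51 without replicate 2 or 3 of the KO GV group.

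In order of mean level, Pabpn1l ran WT GV, WT MI, WT MII, KO GV, KO MII and KO MI. WT GV did not overlap WT MI, and WT MII did not overlap KO GV. WT MI overlapped WT MII, KO GV overlapped KO MII, and KO MII overlapped KO MI.

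**Figure D2:**
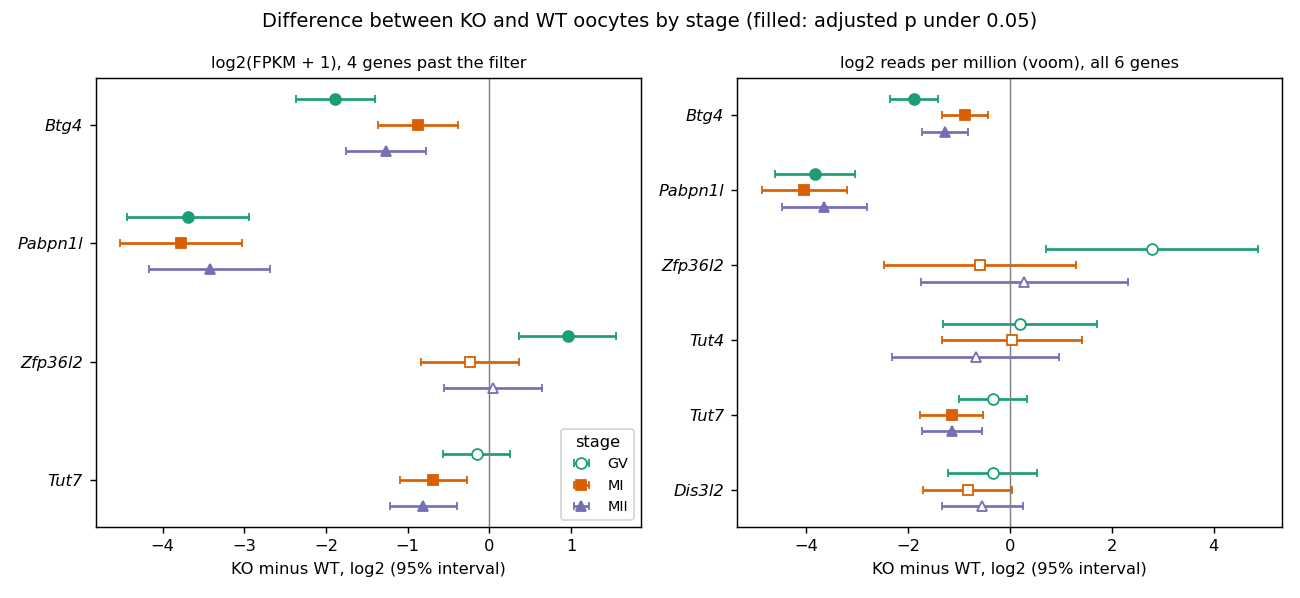
Change of KO against WT by stage with its 95% interval, on log2(FPKM + 1) for the 4 members past the filter (left) and on log2 reads, scaled to the library, with voom for all 6 (right), filled where the adjusted p is under 0.05. Pabpn1l lies between -3.42 and -3.77 on the left at the 3 stages, Btg4 is lower at each, Tut7 is filled at MI (-0.68) and MII (-0.81), and the intervals of Tut4 and Dis3l2 on the right cross 0.

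Tut7, a terminal uridylyltransferase gene, did not separate the genotypes at GV and was lower in KO at the later stages. It had 0.664, 1.06 and 0.785 FPKM in KO at GV, against 1.13, 1.04 and 0.940 FPKM in WT. At MI it had 1.15, 1.57 and 0.678 FPKM in KO and 2.43, 2.73 and 1.99 FPKM in WT. At MII it had 1.64, 1.51 and 1.89 FPKM in KO and 4.48, 3.03 and 3.69 FPKM in WT. The genotypes overlapped at GV, and every KO library stood below every WT library at MI and at MII, as in 24.5% and 24.8% of all genes tested. The means were 0.837 ± 0.204 in KO and 1.04 ± 0.0952 in WT at GV, 1.13 ± 0.445 in KO and 2.39 ± 0.374 in WT at MI, and 1.68 ± 0.194 in KO and 3.73 ± 0.729 FPKM in WT at MII (SD, n = 3 each). The log2 change at GV was -0.15 (95% interval -0.56 to 0.26, adjusted p = 0.588 in limma). It was -0.68 (SE 0.196, adjusted p = 0.0210) at MI and -0.81 (adjusted p = 0.00422) at MII in limma. At these low levels the pseudocount sets the size of the change: with 0.1 in place of 1 it was -1.07 at MI and -1.09 at MII, with 5 it was -0.27 and -0.38, and on recovered reads with voom it was -1.14 at both stages. The call at MII held in every alternative that tested Tut7, which the filter of 5 FPKM removes. The call at MI ended when only the 2 groups compared were fitted (adjusted p = 0.0745, limma). It also ended without WT MI replicate 1 (adjusted p = 0.0561, limma) or 2 (0.0787), and without KO MI replicate 1 (0.0545) or 3 (0.115).

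In order of mean level, Tut7 ran WT MII, WT MI, KO MII, KO MI, WT GV and KO GV. WT MII did not overlap WT MI, and WT MI did not overlap KO MII. The libraries of neighbours from KO MII downwards overlapped.

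Zfp36l2, the gene of an AU-rich element binding protein, was near the floor of the assay and varied widely between replicates. It had 2.06, 2.17 and 0.196 FPKM (110, 113 and 10 reads) in KO at GV, against 0.354, 0.104 and 0.0597 FPKM (19, 6 and 3 reads) in WT. At MI it had 0.413, 0.132 and 0.412 FPKM in KO and 0.655, 1.01 and 0.111 FPKM in WT. At MII it had 0.364, 0.245 and 0.277 FPKM in KO and 0.370, 0.293 and 0.122 FPKM in WT. The genotypes overlapped at every stage, and KO GV replicate 3 lay within the WT GV range. Zfp36l2 passed the filter through KO GV replicates 1 and 2 and WT MI replicate 2 alone, so its difference at GV rests on the libraries that let it in and supports nothing further. The log2 change was 0.96 at GV (SE 0.285, adjusted p = 0.0261 in limma), -0.24 at MI (adjusted p = 0.621) and 0.04 at MII (adjusted p = 0.937). The call at GV ended without KO GV replicate 1 (0.74, adjusted p = 0.114, limma) or 2 (0.71, adjusted p = 0.128, limma). It ended likewise without WT GV replicate 2 (0.92, adjusted p = 0.0713, limma) or 3 (0.89, adjusted p = 0.0922, limma). It ended with no filter (adjusted p = 0.0819, limma), with only the 2 groups compared (0.158, limma) and with voom on genes of at least 10 reads in 3 libraries (0.0590). Without KO GV replicate 3 it was 1.42 (adjusted p = 0.00018, limma), and with a pseudocount of 0.1 or 5 it was 2.21 or 0.31.

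In order of mean level, Zfp36l2 ran KO GV (1.47 ± 1.11), WT MI (0.591 ± 0.452), KO MI (0.319 ± 0.162), KO MII (0.295 ± 0.0613), WT MII (0.261 ± 0.127) and WT GV (0.173 ± 0.159 FPKM; SD, n = 3 each), and each pair of neighbours overlapped.

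Tut4, the paralogue of Tut7, was the lowest of the 6. It had 0.168, 0.187 and 0.0239 FPKM (22, 24 and 3 reads) in KO at GV, against 0.106, 0.0492 and 0.105 FPKM (14, 7 and 13 reads) in WT. At MI it had 0.0909, 0.0938 and 0.181 FPKM in KO and 0.0819, 0.258 and 0.0677 FPKM in WT. At MII it had 0.0563, 0.0285 and 0.0634 FPKM (8, 4 and 9 reads) in KO and 0.0888, 0.119 and 0.0425 FPKM (13, 17 and 6 reads) in WT. The genotypes overlapped at all 3 stages. In order of mean level it ran WT MI (0.136 ± 0.106), KO GV (0.126 ± 0.0891), KO MI (0.122 ± 0.0514), WT GV (0.0868 ± 0.0326), WT MII (0.0834 ± 0.0385) and KO MII (0.0494 ± 0.0185 FPKM; SD, n = 3 each), and neighbours in this order overlapped. With voom on recovered reads, which was added after the data were seen so that all 6 genes entered, the log2 change of Tut4 was 0.20 at GV (95% interval -1.31 to 1.72), 0.04 at MI (-1.33 to 1.40) and -0.67 at MII (-2.32 to 0.97). These wide intervals cover 0, and a difference was not detectable at 3 to 34 reads per library.

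Dis3l2, the gene of the exonuclease for uridylated RNA, had 0.253, 0.578 and 0.233 FPKM in KO at GV, against 0.407, 0.514 and 0.332 FPKM in WT. At MI it had 0.287, 0.177 and 0.340 FPKM in KO and 0.399, 0.570 and 0.433 FPKM in WT. At MII it had 0.447, 0.445 and 0.467 FPKM in KO and 0.766, 0.437 and 0.864 FPKM in WT. KO lay below WT without overlap at MI, and the genotypes overlapped at GV and MII. Such a gap at MI was found in 24.5% of the genes tested, a set that Dis3l2 did not enter. The share among genes as low as Dis3l2 was not computed. The voom change on recovered reads was -0.34 at GV (95% interval -1.21 to 0.53), -0.83 at MI (-1.70 to 0.04) and -0.54 at MII (-1.33 to 0.25), and none was called (adjusted p = 0.592, 0.200 and 0.314). In order of mean level it ran WT MII (0.689 ± 0.224), WT MI (0.468 ± 0.0904), KO MII (0.453 ± 0.0126), WT GV (0.417 ± 0.0916), KO GV (0.355 ± 0.194) and KO MI (0.268 ± 0.0834 FPKM; SD, n = 3 each). Neighbours in this order overlapped.

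Across meiosis the members moved in different directions. Among all genes tested, 13.0% were called between GV and MI in KO and 4.82% in WT, and 37.2% between GV and MII in KO and 57.7% in WT. Of the 4 members tested, 1 was called between GV and MI in each genotype and 3 between GV and MII in each. The 3 in KO include Zfp36l2, whose call rests on KO GV replicates 1 and 2, through which it passed the filter. The comparisons of both later stages share the GV libraries of their genotype.

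Btg4 rose from GV to MI in KO by 1.36 on the log2 scale (adjusted p = 0.000585, limma), with a KO MI mean of 2.58 times the KO GV mean, and MII stood at 2.56 times GV (1.35, adjusted p = 0.000142, limma). In WT the change was 0.36 at MI (adjusted p = 0.325, limma) and 0.74 at MII (adjusted p = 0.0116, limma), where the mean was 1.60 times that of GV. The WT call at MII ended under median-of-ratios scaling (0.62, adjusted p = 0.120, limma) and without WT GV replicate 2 (0.51, adjusted p = 0.0841, limma). The difference between KO and WT in the change was 1.01 from GV to MI (adjusted p = 0.251) and 0.62 from GV to MII (adjusted p = 0.224) in limma, so a difference in the course of Btg4 was not called.

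Tut7 rose in WT by 0.73 at MI (adjusted p = 0.0399, limma) and by 1.21 at MII (adjusted p = 5.46e-05, limma), where its mean was 3.60 times that of GV. In KO it changed by 0.20 at MI (adjusted p = 0.581, limma) and rose by 0.55 at MII (adjusted p = 0.0342, limma), to 2.01 times GV. The difference between genotypes in these changes was -0.53 (adjusted p = 0.408) and -0.66 (adjusted p = 0.134, limma) and was not called. The WT call at MI ended in 5 of the other settings, at adjusted p of 0.0512 to 0.0647 in limma, and without each of 9 libraries in turn, at up to 0.180 without WT MI replicate 1. The KO call at MII ended without KO GV replicate 1 (0.107) or 3 (0.0590), and without KO MII replicate 1 (0.0741), 2 (0.0535) or 3 (0.104). It also ended with a pseudocount of 5 (0.0634) and with only the 2 groups compared (0.0846, limma).

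Pabpn1l fell by 0.94 between GV and MII in WT (adjusted p = 0.0299, limma), to 0.524 of the GV mean. This call ended with no filter (adjusted p = 0.0918, limma), under quantile normalization (0.135), without any 1 of the 3 WT GV replicates (0.0555 to 0.0673) and without WT MII replicate 1 (0.117) or 2 (0.0534). The other changes of Pabpn1l over time were -0.76 at MI in WT (adjusted p = 0.175), and -0.85 at MI (adjusted p = 0.130) and -0.68 at MII (adjusted p = 0.144) in KO, in limma. Zfp36l2 was lower at MII than at GV in KO (-0.81, adjusted p = 0.0326, limma), a call that rests on the same KO GV replicates 1 and 2 and ended without either (0.148 and 0.144), without any 1 of the KO MII replicates (0.0619 to 0.0820) and in 6 of the other settings (0.0988 to 0.135). No interaction of genotype and stage was called for any of the 4 members, against 0.0775% of all genes from GV to MI and 5.61% from GV to MII. From GV to MI, 2 members (Btg4 and Zfp36l2) had an unadjusted p under 0.05 in limma, as did 13.4% of all genes, and the same 2 did in voom. From GV to MII, 2 members (Tut7 and Zfp36l2) had one in limma, as did 28.1% of all genes, and 0 did in voom. After adjustment, voom on recovered reads called 0 members in both, as limma did. Without KO GV replicate 3 the interaction of Zfp36l2 was called in both (-1.65, adjusted p = 0.00806, and -1.38, adjusted p = 0.00434, limma). That fit keeps as KO GV only replicates 1 and 2, through which Zfp36l2 passed the filter, so these calls support nothing further.

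The scaling between libraries shifted the median of all genes. The median change of KO against WT was 0.17 at GV, -0.13 at MI and 0.01 at MII with the deposited scaling, and -0.04, 0.02 and 0.02 with median-of-ratios scaling. The called genes at GV were 1373 higher and 773 lower with the deposited scaling and 1087 higher and 1445 lower with median-of-ratios scaling. At MI they were 375 higher and 1411 lower with the deposited scaling, and 874 and 1154 with median-of-ratios scaling. Under median-of-ratios scaling Btg4 changed by -2.18 at GV, -0.68 at MI and -1.24 at MII, and its call at MI ended (adjusted p = 0.174, limma). Pabpn1l changed by -3.97, -3.57 and -3.40 at the 3 stages. Tut7 was at -0.54 at MI and -0.80 at MII, so these members kept their direction.

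The rest of the decay machinery was read from 5 lists, chosen with earlier results of these data known. Of the 20 genes of CCR4-NOT, other deadenylases and BTG/TOB proteins, 19 were tested. At GV 1 was higher and 2 were lower in KO, at MI 4 were lower and at MII 5 were lower, with list medians of 0.12, -0.13 and -0.46, against 0.17, -0.13 and 0.01 for all genes. Cnot8, a catalytic deadenylase subunit of CCR4-NOT, was lower at all 3 stages. It averaged 34.0 ± 6.01 FPKM in KO and 77.9 ± 1.381 in WT at GV, 28.4 ± 6.85 in KO and 74.3 ± 16.9 in WT at MI, and 41.3 ± 1.30 in KO and 111.4 ± 34.9 in WT at MII (SD, n = 3 each), with log2 changes of -1.19, -1.36 and -1.36. Cnot7, its paralogue, was lower at GV (-1.43, adjusted p = 0.00293, limma) and at MII (-0.96, adjusted p = 0.0177, limma). Its mean was 36.5 ± 9.95 FPKM in KO and 63.4 ± 5.04 in WT at MI (SD, n = 3 each; adjusted p = 0.0592, limma). The GV call of Cnot7 ended with only the 2 groups compared (adjusted p = 0.0712, limma). Its MII call ended under median-of-ratios scaling (0.0569) and without WT MII replicate 1 (0.0663) or KO MII replicate 3 (0.0719). Cnot6, another catalytic subunit, had 0.989 ± 0.498 FPKM in KO and 4.14 ± 0.612 in WT at MII (log2 -1.40). Cnot3, a further subunit of CCR4-NOT, had 2.62 ± 0.432 FPKM in KO and 13.8 ± 3.26 in WT at MII (log2 -2.02, with SD and n = 3 each for both genes). Both were also lower at MI (-0.95 and -1.04). Over the other settings Cnot6 ranged from -1.52 to -0.39 at MI and from -2.21 to -0.61 at MII, and Cnot3 from -1.23 to -0.65 at MI and from -2.39 to -1.29 at MII. The MI call of Cnot6 ended without WT MI replicate 1 (adjusted p = 0.0505, limma). That of Cnot3 ended with no filter (0.0870) and without WT MI replicate 1 (0.142) or KO MI replicate 1 (0.122) or 2 (0.0683).

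Of 21 other adaptors and mRNA readers, 20 were found and 14 tested. At GV 3 were higher, at MI 2 were lower and at MII 2 were higher and 1 lower in KO, with medians of 0.89, 0.22 and -0.10. Ythdf2, a reader of N6-methyladenosine that recruits CCR4-NOT, had 38.3 ± 0.988 FPKM in KO and 18.3 ± 5.73 in WT at GV, and 43.2 ± 7.19 in KO and 20.4 ± 2.58 in WT at MII (SD, n = 3 each). Its log2 changes were 1.06 and 1.04, and the GV call ended without WT GV replicate 3 (adjusted p = 0.0733, limma) and with only the 2 groups compared (0.0804). Ythdf3, its paralogue, was lower at MI (-0.69) and at MII (-0.98, adjusted p = 0.00298, limma), with 20.2 ± 1.16 FPKM in KO and 40.9 ± 2.29 in WT at MII (SD, n = 3 each). The MI call of Ythdf3 ended in 4 of the other settings (adjusted p up to 0.167, limma, under median-of-ratios scaling) and without each of 10 libraries in turn (up to 0.145). Tnrc6b, a scaffold of miRNA silencing, was higher at GV (1.08), a call that ended without KO GV replicate 1 (adjusted p = 0.0735, limma) or 2 (0.107) or WT GV replicate 3 (0.0910), with no filter (0.0534) and with only the 2 groups compared (0.155). Nanos2, of which other genes share 49.0% of the exon length, was lower at MI (-1.02), a call that ended without WT MI replicate 1 (adjusted p = 0.147, limma) or 2 (0.0843) without KO MI replicate 1 (0.0893) or 3 (0.106) and with no filter (0.0879).

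Of 15 other terminal nucleotidyltransferases, LIN28 and DIS3 family genes, 12 were tested, and 1, 1 and 3 were lower in KO at GV, MI and MII with 0 higher (medians 0.29, -0.11 and -0.29). Eri1, a 3′ exoribonuclease, was lower at all 3 stages (-1.03, -1.27 and -0.89), with 1.27 ± 0.110 FPKM in KO and 4.68 ± 2.01 in WT at MI (SD, n = 3 each). Its GV call ended without WT GV replicate 3 (adjusted p = 0.0743, limma) and with only the 2 groups compared (0.120). Its MII call ended without WT MII replicate 1 (0.0568) or 2 (0.0526) or KO MII replicate 1 (0.0587). Lin28b, a gene of the LIN28 family, had 2.80 ± 0.678 FPKM in KO and 6.04 ± 0.952 in WT at MII (SD, n = 3 each). Its log2 change was -0.90 (adjusted p = 0.00549, limma). Mtpap, the mitochondrial poly(A) polymerase gene, was not called at GV (-1.26, adjusted p = 0.0581, limma), and other genes share 22.1% of its exon length.

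Of 11 other poly(A)-binding protein and PAIP genes, 9 were found and 6 tested, and 1, 1 and 3 were higher in KO at GV, MI and MII, with 0, 0 and 1 lower (medians 0.44, 0.24 and 1.36). Pabpc1, the main cytoplasmic poly(A)-binding protein of somatic cells, was higher in KO at all 3 stages (2.16, 2.25 and 1.91). It averaged 5.22 ± 4.01 FPKM in KO and 0.168 ± 0.0527 in WT at GV, 7.38 ± 0.714 in KO and 0.827 ± 0.595 in WT at MI, and 4.65 ± 2.67 in KO and 0.372 ± 0.129 in WT at MII (SD, n = 3 each). Its size depends on the processing, from 0.90 to 4.55 at GV, 1.09 to 3.62 at MI and 0.80 to 3.46 at MII over the other settings, the lowest with a pseudocount of 5 and the highest with voom. Its GV call ended with only the 2 groups compared (adjusted p = 0.0562, limma). Pabpc1l, the embryonic poly(A)-binding protein of oocytes, had 50.3 ± 9.73 FPKM in KO and 11.6 ± 5.23 in WT at MII (log2 2.08), and was not called at GV or MI. Paip2, an inhibitor of poly(A)-binding protein, had 335.1 ± 24.8 FPKM in KO and 29.8 ± 1.77 in WT at MII (SD, n = 3 each; log2 3.45, adjusted p = 2.26e-07, limma). Paip1, a partner of poly(A)-binding protein in translation, was lower at MII (-1.33), a call that ended without WT MII replicate 2 (adjusted p = 0.0589, limma). Pabpc4 was not called at any stage (0.62, 0.26 and 0.37).

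Of 21 genes of decapping and 5′ decay, 19 were tested. At GV 3 were higher and 1 lower, at MI 2 higher and 3 lower, and at MII 5 higher and 4 lower in KO, with medians of 0.23, -0.18 and 0.05. Dcp1a, a decapping cofactor, was lower at all 3 stages (-1.66, -1.48 and -1.47), with 64.6 ± 10.4 FPKM in KO and 181.4 ± 29.1 in WT at MII (SD, n = 3 each). Dcp2, the decapping enzyme, was lower at MI (-1.26) and MII (-1.19). Lsm3, a subunit of the LSM ring, was higher at MI (0.90) and MII (1.78), and its MI call ended without WT MI replicate 2 (adjusted p = 0.0777, limma) or 3 (0.0717) or KO MI replicate 1 (0.0966) or 3 (0.0798). Patl2, an oocyte RNA-binding protein gene, was higher at GV (1.82) and at MII (2.91), with 31.8 ± 7.96 FPKM in KO and 3.37 ± 1.02 in WT at MII (SD, n = 3 each). Its GV call ended with no filter (adjusted p = 0.0539, limma), with only the 2 groups compared (0.0590) and without WT GV replicate 3 (0.0763). Ddx6, a helicase of stored and decaying mRNA, was higher at GV (1.30) and MI (1.01). Its GV call ended with only the 2 groups compared (adjusted p = 0.107, limma) and without WT GV replicate 3 (0.0664) or KO GV replicate 2 (0.0541). Its MI call ended with no filter (0.0941), with a pseudocount of 0.1 (0.0530) and without WT MI replicate 1 (0.116) or 3 (0.130) or any 1 of the 3 KO MI replicates (0.0538 to 0.113).

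**Figure D3:**
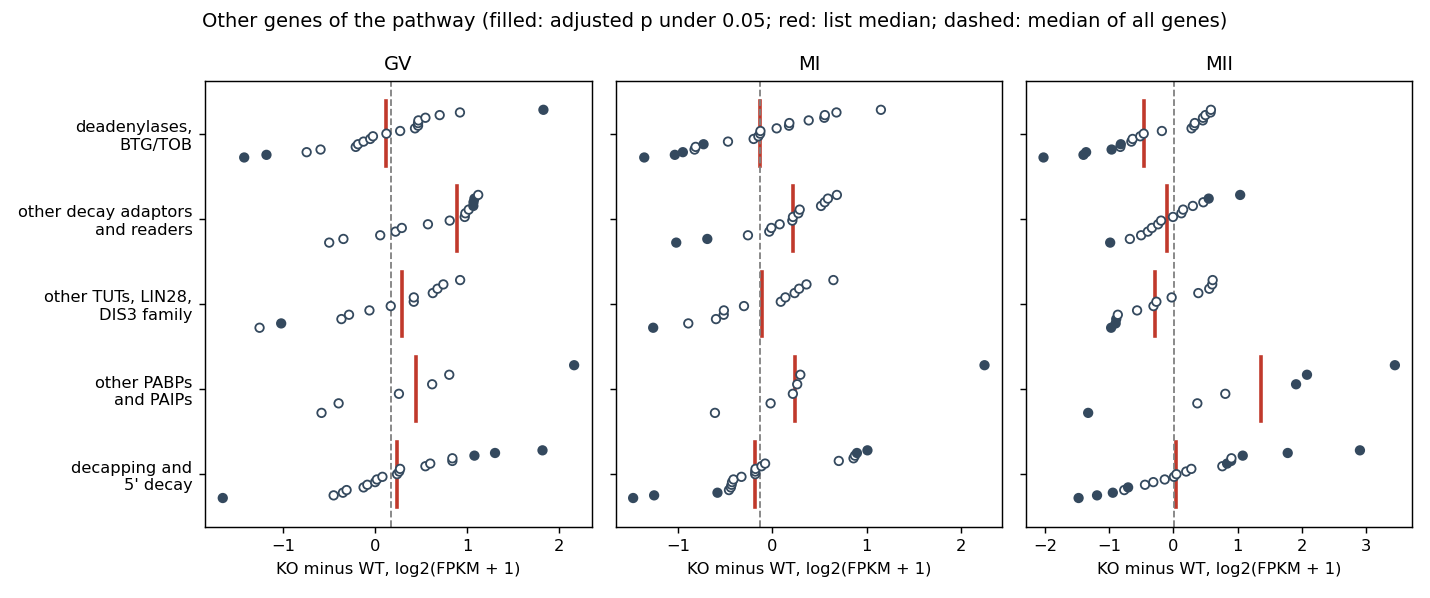
Change of KO against WT in log2(FPKM + 1) for the tested genes of 5 lists at GV, MI and MII, filled where the adjusted p is under 0.05, with a red line at the list median and a dashed line at the median of all genes. The deadenylase list has its median at -0.46 at MII, and the list of other poly(A)-binding protein genes has it at 1.36.

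The genes whose pattern was most like that of each member were found by Pearson's r of log2(FPKM + 1) over the 18 libraries among 3984 genes with a mean of at least 5 FPKM. These r values describe libraries that share genotype, stage and scaling, and carry no test. For Btg4 the closest genes of this pool were Orc6 (0.956), Ccdc69 (0.952) and Tmem128 (0.950). Ccdc69 averaged 139.4 FPKM in KO and 1528 in WT at GV, 423.5 in KO and 1706 in WT at MI, and 445.4 in KO and 2681 in WT at MII. For Pabpn1l they were Exosc3 (0.949), Cmya5 (0.941) and Zc3h6 (0.933). Exosc3 averaged 4.16 FPKM in KO and 50.2 in WT at GV, 3.23 in KO and 70.4 in WT at MI, and 4.20 in KO and 59.3 in WT at MII. For Tut7 they were Mif4gd (0.966), Lpl (0.956) and Taf3 (0.944), and Mif4gd averaged 13.2 FPKM in KO and 11.6 in WT at GV, 12.3 in KO and 24.3 in WT at MI, and 18.5 in KO and 38.7 in WT at MII. The 3 genes named for Tut7 were also its closest under median-of-ratios scaling, while 1 of 3 was for Btg4 and 2 of 3 were for Pabpn1l, Zfp36l2 and Dis3l2. The low genes had lower values. For Zfp36l2 they were Cand1 (0.881), Txlna (0.878) and Eef2 (0.835), for Dis3l2 Csad (0.844), Fam114a2 (0.828) and Kcnk18 (0.827), and for Tut4 Net1 (0.754), Tigar (0.741) and Smap2 (0.730). Under median-of-ratios scaling 0 of the 3 genes named for Tut4 were among its closest 3, and their r was 0.583, 0.552 and 0.586.

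**Figure D4:**
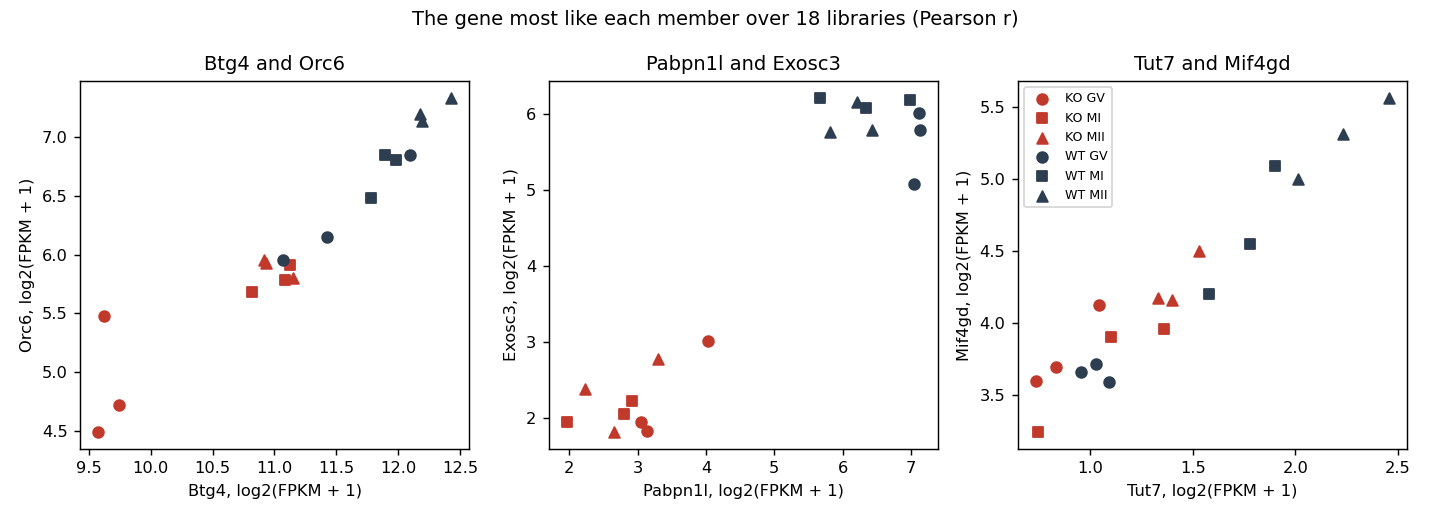
Values in log2(FPKM + 1) of Btg4, Pabpn1l and Tut7 (horizontal axis) and of the gene most like each in the pool compared (vertical axis). The 18 libraries are shown with KO in red, WT in dark blue and stages by shape. For Pabpn1l and Exosc3 the 9 KO libraries and the 9 WT libraries form separate groups, whereas Btg4 with Orc6 and Tut7 with Mif4gd run in 1 band.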

How the data were processed

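RNA of 18 libraries (15 oocytes each, Smart-seq2, oligo(dT) primer, per the labels' protocols) was given by the authors as 1 deposited table of FPKM. The submitters' processing notes name mm10 and DESeq2 1.38.3 with no role, and the aligner, counter, annotation and strand setting were not given in the sources used here. An oligo(dT) primer copies RNA through its tail, and tail length was not measured. Gene IDs were matched to GENCODE vM21 (27829 of 27874 found).

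From these values log2(FPKM + 1) was fitted in R 4.3.3 with limma 3.58.1 (6 group means, 12 residual degrees of freedom, trend, two-sided) for genes with at least 1 FPKM in 3 libraries, all genes together, with Benjamini-Hochberg adjustment within each comparison and a threshold of 0.05. Tables and figures used Python 3.11.15, pandas 2.3.3, numpy 2.4.6 and matplotlib 3.10.9. The fit was tested on simulated data. Whole reads were recovered within 0.05 reads for 92.8% to 93.3% of nonzero values per library, and within 0.1 reads in all libraries for 94.1% of genes, the 6 members included. They were fitted with voom, whose count of called genes at GV was 2031. No 2 replicates held identical values or agreed within sampling noise.

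The members and the gene lists were chosen with earlier results of these data known. For each list, the genes called in the same direction at all 3 stages and the 2 with the smallest p at each stage were named. For each member, the 3 genes with the highest Pearson r were named, with predicted genes, clones and pseudogenes left out by name. Alternatives were pseudocounts of 0.1 and 5, no filter, a filter of 5 FPKM, median-of-ratios scaling, quantile normalization, only the groups compared, voom, a replicate block and leaving out each library. Voom with at least 10 reads in 3 libraries was chosen after seeing the data.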

Additional observations from a re-analysis of the deposited data

Results flagged for a closer look

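None of the 6 genes met a rule for a closer look, but 5 genes of the related lists and Lsm14b changed between GV and MII differently in KO and WT, by limma's interaction term with Benjamini-Hochberg adjustment over 10320 genes. Paip2 differed by 3.85 on the log2 scale (adjusted p = 4.44e-05, limma), with means of 211.7 FPKM in KO and 267.3 in WT at GV and of 335.1 in KO and 29.8 in WT at MII. Lsm3 differed by 1.87 (adjusted p = 0.00597, limma), with 27.6 FPKM in KO and 30.1 in WT at GV and 15.7 in KO and 3.87 in WT at MII. Pabpc1l differed by 1.83 (adjusted p = 0.0477, limma), with 56.0 FPKM in KO and 46.2 in WT at GV and 50.3 in KO and 11.6 in WT at MII. Cnot3 differed by -1.81 (adjusted p = 0.0276, limma), with 3.82 FPKM in KO and 3.99 in WT at GV and 2.62 in KO and 13.8 in WT at MII. Cnot6 differed by -1.21 (adjusted p = 0.0408, limma), with 0.740 FPKM in KO and 1.00 in WT at GV and 0.989 in KO and 4.14 in WT at MII. Lsm14b, the gene lost in KO, had means of 0.116 FPKM in KO and 2.30 in WT at GV. At MII they were 0.113 in KO and 9.34 in WT. Its change differed by -1.64 (adjusted p = 0.00786, limma). At 0 to 10 reads in KO libraries this value follows the WT libraries, and with voom on recovered reads it was -1.63 and not called (adjusted p = 0.319). The calls of Pabpc1l, Cnot3 and Cnot6 ended without each of 10, 7 and 11 libraries in turn and in 3, 1 and 5 of the other settings.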

How the results depend on the processing

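The replicate numbers shared by KO and WT did not pair the libraries (correlations of same-numbered deviations between -0.172 and 0.362). With the replicate number as a block, called genes numbered 2040 at GV, 1751 at MI and 2924 at MII, against 2146, 1786 and 2956 without it, and 3 members were called at each stage either way. Zfp36l2, Tut4 and Dis3l2 had only 3 to 125 reads per library. Zfp36l2 also varied between replicates, with 110, 113 and 10 reads in KO at GV. Of single-gene values under the alternatives, 1972 kept direction and side of the threshold, 151 lost the call, 3 gained it and 9 changed sign. Leaving out a library outside a comparison cannot move its log2 change, only its p, and such fits are counted here. List genes entered only where the main fit had called them. The 1972 is therefore not a measure of stability. The calls of Btg4 at GV and MII, Pabpn1l at all 3 stages and Tut7 at MII held in every alternative that tested the gene. The 5 FPKM filter removes Tut7 and Zfp36l2, so counts of members there cover Btg4 and Pabpn1l only. Fewer genes enter with the 5 FPKM filter, and fewer samples when only the groups compared are fitted. Fitting only the groups compared lowered the number of called genes in some comparisons and raised it in others, as at MII (3811). The causes of these and the other changes were not tested.

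With a filter of 5 FPKM, called genes were 1427 at GV, 1157 at MI, 2546 between GV and MII in KO (main 3842) and 3925 in WT (main 5959). With only the groups compared they were 302 at GV, 414 between GV and MI in KO (main 1337) and 2432 between GV and MII in KO. Between GV and MII in KO, where 3 of 4 members were called, 1 of 4 was called with only the groups compared and 1 of the 2 tested with the 5 FPKM filter. Between GV and MI in WT (main 497), pseudocount 0.1 gave 302 genes, no filter 195, median-of-ratios scaling 849 (151 higher, 698 lower, main 284 and 213) and quantile normalization 821 (272 higher, 549 lower). The 1 member called there, Tut7, was not called under these 4 settings or with only the groups compared, which leaves 0, and the count is also 0 with the 5 FPKM filter, which did not test it. Quantile normalization also gave 1380 higher and 1347 lower at GV, 1068 and 1192 at MI, 818 and 1076 between GV and MI in KO (main 261 and 1076), and 3078 and 2105 between GV and MII in KO (main 1224 and 2618). Median-of-ratios scaling gave 547 higher and 1121 lower between GV and MI in KO and 2245 and 2484 between GV and MII in KO. The difference between KO and WT in the change from GV to MI had 8 called genes. It had 5 with pseudocount 0.1, median-of-ratios scaling or quantile normalization, 4 with pseudocount 5, the 5 FPKM filter or voom on at least 10 reads, 14 with no filter and 1 with only the groups compared. From GV to MII (main 579) no filter gave 268, median-of-ratios scaling 1160 and quantile normalization 1026.

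Leaving out 1 library at a time, called genes ranged from 900 (without WT GV replicate 3) to 4130 (without KO GV replicate 3) at GV and from 1074 (without WT MI replicate 2) to 2284 at MI. They ranged from 791 (without KO MI replicate 1) to 1912 between GV and MI in KO, and from 40 (without WT MI replicate 1) to 1438 (without KO GV replicate 3) in WT. For the difference in change they ranged from 4 to 719 for GV to MI and from 215 (without KO MII replicate 1) to 2823 for GV to MII, the highest without KO GV replicate 3. Members called ranged from 1 to 3 at MI, from 1 to 2 between GV and MI in KO, from 0 to 1 in WT, from 1 to 3 between GV and MII in each genotype, and from 0 to 1 for both differences in change. The upper ends between GV and MI in KO and for both differences came without KO GV replicate 3, where Zfp36l2 was called.

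With a pseudocount of 5 the changes of Eri1, Tnrc6b, Ddx6, Nanos2 and Lin28b also shrank by over 1.5 times, Eri1 to -0.52, -0.61 and -0.39 at the 3 stages. Values that changed sign were uncalled. Zfp36l2 at MII was -0.0383 under quantile normalization and ranged from -0.0398 to 0.10 over left-out libraries. Btg4 between GV and MI in WT was -0.0485 under median-of-ratios scaling. The difference in change of Pabpn1l from GV to MI was 0.17 with pseudocount 5 and 0.41 under median-of-ratios scaling, and ranged from -0.42 to 0.24 over left-out libraries, and from GV to MII it ranged from -0.0227 to 0.57.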
